A study of Drosophila melanogaster with 30 samples.

Results

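The change of the m6A-IP/input ratio after knockdown of *dTrmt10A* (CG14618) was measured in heads of *Drosophila* in basal conditions. Of the 30 libraries of the series, 12 belong to this comparison and were chosen by their labels: an input and an IP library from each of 3 RNA samples of control heads and 3 RNA samples of *dTrmt10A* RNAi heads. In m6A-IP sequencing, fragmented polyA+ RNA is pulled down with an antibody to m6A, and IP/input is the abundance of a transcript in the pulled-down RNA relative to the RNA it was taken from. Each RNA sample came from 200 heads of males collected 1 to 2 days after eclosion and kept at 25 °C, without heat shock. Both groups carried *da*Gal4, a ubiquitous driver, so the knockdown was not restricted to the brain. Control heads were *da*Gal4 > Control RNAi (Vienna 60100), a line with an empty landing site of the KK collection, and *dTrmt10A* RNAi heads were *da*Gal4 > *dTrmt10A* RNAi (Vienna 100720), an inducible hairpin from the same collection. Each group is thus 1 fly line, crossed to the same driver. The labels give a Synaptic Systems antibody for all 3 replicates of a group, but the methods of the study give fewer replicates with it and others with an antibody from NEB. These sources disagree, antibody was not a term in the fit, and whether it differed among the 3 replicates of a group was not tested.

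m6A is a methyl mark on adenosines inside mRNA. In flies it is written by a complex built around Mettl3 and Mettl14, is bound by YTH-domain readers, and is abundant on transcripts of the nervous system. Human TRMT10A and its relatives methylate tRNA at guanosine (m1G). *Hsp70* encodes the major heat-inducible chaperone of flies, which is nearly silent in unstressed tissue and exists in 6 closely similar copies on chromosome 3R. The question of the comparison is which transcripts differ in IP/input when *dTrmt10A* is reduced.

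Total counts were 16938518 to 30150264 per library, with 22038183 to 30150264 in input and 16938518 to 20061443 in IP. The nearest library by correlation of log2 CPM (TMM-scaled counts of each library) had the same genotype and assay for all 12 libraries. The targeted gene had 205, 199 and 240 counts in control inputs and 104, 96 and 138 in *dTrmt10A* RNAi inputs. The *dTrmt10A* input level fell by 1.06 on the log2 scale (SE 0.118, adjusted p = 0.00340, edgeR quasi-likelihood F-test, Benjamini-Hochberg (BH) adjusted over all genes tested). The remaining *dTrmt10A* RNA had log2 IP/input values of -0.08, 0.27 and 0.04 in control and -0.38, 0.19 and -0.72 in RNAi heads, which overlap. Summed input levels of neuron markers (4388 to 4491 CPM in control, 4399 to 4732 CPM in RNAi), glia markers (3139 to 3198 CPM and 3063 to 3175 CPM) and photoreceptor markers (42353 to 47185 CPM and 43213 to 47553 CPM) overlapped between the genotypes, and no marker of these lists was at 0 in every input. Fat body and muscle marker sums also overlapped. The 7 hemocyte (blood cell) markers did not, with 1420 to 1537 CPM in control and 1240 to 1329 CPM in RNAi inputs. Of 6 hemocyte markers tested, 1 had a change of IP/input above 0, beside 48.1% of all genes, the median was -0.10 and none passed. The part of these lower levels in the results was not tested. The 9 testis markers summed to at most 0.993 CPM. In these bulk samples, fewer cells of a type and less RNA per cell cannot be told apart.

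**IP/input was higher for 3 Hsp70 copies in dTrmt10A RNAi heads.** Of 10343 genes tested, 3 passed the threshold (0.029%), and all 3 were *Hsp70* copies with higher IP/input in *dTrmt10A* RNAi heads: *Hsp70Aa*, *Hsp70Ab* and *Hsp70Bb*. In the lower direction 0 genes passed in edgeR, DESeq2 and limma voom, and 421 genes had an unadjusted edgeR p under 0.05 (4.07%). In the higher direction 216 genes had an unadjusted p under 0.05 (2.09%), so that 6.16% of genes were below that value in either direction. The 3 called copies do not include *Hsp70Ba*, *Hsp70Bbb* and *Hsp70Bc*, so the copies had to be told apart before their values were read.

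The 6 copies lie in 2 clusters on 3R of dm6. *Hsp70Aa* (FBgn0013275, chr3R:11954163-11956544, minus strand) and *Hsp70Ab* (FBgn0013276, chr3R:11958535-11960909, plus strand) differ by 8 edits over their transcripts, and *Hsp70Ba* (FBgn0013277, chr3R:12465453-12467776, minus strand), *Hsp70Bbb* (FBgn0051354, chr3R:12502510-12504856, plus strand), *Hsp70Bb* (FBgn0013278, chr3R:12505793-12508139, plus strand) and *Hsp70Bc* (FBgn0013279, chr3R:12509076-12511461, plus strand) form the second cluster. A stretch of 150 bases, the length of 1 read, was unique to 1 copy at 1.16% of positions in *Hsp70Aa*, 0.854% in *Hsp70Ab*, 35.7% in *Hsp70Ba*, 15.3% in *Hsp70Bb*, 7.19% in *Hsp70Bbb* and 22.9% in *Hsp70Bc*. Reads of these genes can therefore be assigned to another copy or left out by the counting, and values of single copies are uncertain, least so where unique sequence is long. The 5'UTR of *Hsp70Bb* and of *Hsp70Ba* was unique at 100% of positions, and those of *Hsp70Bbb* and *Hsp70Bc* at 0%. *Hsp70Bb* differs from *Hsp70Bbb* and *Hsp70Bc* in the 5'UTR by 2 edits alone. Over whole transcripts *Hsp70Bb* differs from *Hsp70Bbb* by 5 edits and from *Hsp70Bc* by 91. The windows are shown because they hold the differences between the 5'UTR of the called copy *Hsp70Bb* and those of *Hsp70Bbb* and *Hsp70Bc*. They are from the RefSeq dm6 genome, 5′ to 3′ on the transcribed strand, with capitals at columns where at least 1 copy differs:
Hsp70Aa window 1 (chr3R:11956411-11956438, minus): aagtgaatcaattaAaagtaaccaAcaa
Hsp70Bb window 1 (chr3R:12505896-12505923, plus): aagtgaatcaattaAaagtaaccaGcaa
Hsp70Bbb window 1 (chr3R:12502613-12502640, plus): aagtgaatcaattaTaagtaaccaGcaa
Hsp70Aa window 2 (chr3R:11956336-11956363, minus): taattattgaaGacAagaagaGAACTCT
Hsp70Bb window 2 (chr3R:12505964-12505991, plus): taattattgaaTacAagaagaGAACTCT
Hsp70Bbb window 2 (chr3R:12502681-12502708, plus): taattattgaaTacCagaagaGAACTCT
Hsp70Ba window 2 (chr3R:12467601-12467621, minus): taattattgaaTacAagaaga
*Hsp70Ab* has the letters of *Hsp70Aa* in both windows, *Hsp70Bc* has those of *Hsp70Bbb*, and *Hsp70Ba* has those of *Hsp70Bb* in window 1 and a gap at the end of window 2. *Hsp70Ba*, which was not called, thus carries the *Hsp70Bb* letters at both edited columns.

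*Hsp70Bb* had 547, 265 and 224 counts in control inputs and 5012, 4912 and 6412 in RNAi inputs. In IP it had 263, 146 and 128 counts in control and 8618, 9349 and 8793 in RNAi heads. Log2 IP/input of *Hsp70Bb* was -0.55, -0.23 and -0.22 in control and 1.40, 1.23 and 1.40 in RNAi samples. All RNAi values of *Hsp70Bb* were thus above all control values in input, in IP and in their ratio, and the transcript went from below to above its share of the input. The change of log2 IP/input was 1.71 (SE 0.107, 95% CI 1.49 to 1.93, adjusted p = 2.58e-08, edgeR quasi-likelihood F-test, BH). Its input level was 14.3 ± 8.09 CPM in control and 203 ± 8.32 CPM in RNAi heads (SD, n = 3 each), a log2 fold change of 3.82 (SE 0.310, adjusted p = 7.34e-04, edgeR quasi-likelihood F-test, BH), where 39 of 10225 genes were higher in RNAi input (0.381%) and 34 lower (0.333%), 0.714% in either direction.

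*Hsp70Aa* had 2127, 1134 and 991 counts in control inputs and 1116, 1154 and 1406 in RNAi inputs, which overlap. In IP it had 1537, 868 and 805 counts in control and 2518, 2977 and 2702 in RNAi heads, with no overlap. Counts assigned to *Hsp70Aa* thus differed in IP at an input level whose groups overlapped (58.6 ± 28.9 CPM and 45.9 ± 3.31 CPM, SD, n = 3 each). With 1.16% of its positions unique, these counts can include reads of other copies in input and in IP. Log2 IP/input was 0.03, 0.24 and 0.28 in control and 1.79, 1.67 and 1.88 in RNAi samples of *Hsp70Aa*, a change of 1.60 (SE 0.089, 95% CI 1.41 to 1.79, adjusted p = 7.39e-09, edgeR quasi-likelihood F-test, BH). The input change of *Hsp70Aa* was -0.36 (SE 0.264, adjusted p = 0.758 in the same test) and was 0.12 without control replicate 1, the control sample with the highest counts.

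*Hsp70Ab* was the least counted of the 3 called copies in control heads, with 99, 36 and 32 counts in input and 102, 75 and 57 in IP. In RNAi heads it had 314, 334 and 300 counts in input and 1924, 2089 and 1696 in IP. Its log2 IP/input was 0.54, 1.63 and 1.35 in control and 3.22, 2.94 and 3.43 in RNAi samples. The groups of *Hsp70Ab* did not overlap, but the control values were spread more widely than those of the other called copies (SD 0.568). The change was 2.13 (SE 0.235, 95% CI 1.64 to 2.62, adjusted p = 1.49e-04, edgeR quasi-likelihood F-test, BH). In input RNA the log2 fold change of *Hsp70Ab* was 2.38 (SE 0.359, adjusted p = 0.0152, the same test).

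The other 3 copies did not pass the threshold. *Hsp70Ba*, whose 5'UTR is unique, had 241, 92 and 103 input counts in control and 702, 855 and 1482 in RNAi heads, a log2 fold change of 2.63 in input RNA (SE 0.334, adjusted p = 0.00695, edgeR quasi-likelihood F-test, BH). Its log2 IP/input was -0.27, -0.14 and -0.76 in control and -0.12, -0.43 and -0.39 in RNAi samples, a change of 0.04 (95% CI -0.31 to 0.39). *Hsp70Ba* is therefore a copy with higher input RNA whose IP/input values overlapped between genotypes. *Hsp70Bbb* had log2 IP/input of 0.39, 0.99 and 0.66 in control and 1.11, 0.63 and 0.74 in RNAi samples, and *Hsp70Bc* had -0.33, 0.43 and 0.36 in control and 0.60, 0.27 and 0.57 in RNAi samples. Their changes were 0.19 (95% CI -0.24 to 0.63) and 0.37 (unadjusted p = 0.0499, adjusted p = 0.743, edgeR quasi-likelihood F-test, BH). The *Hsp70Bc* change was 0.09 without control replicate 1.

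**Figure D1:**
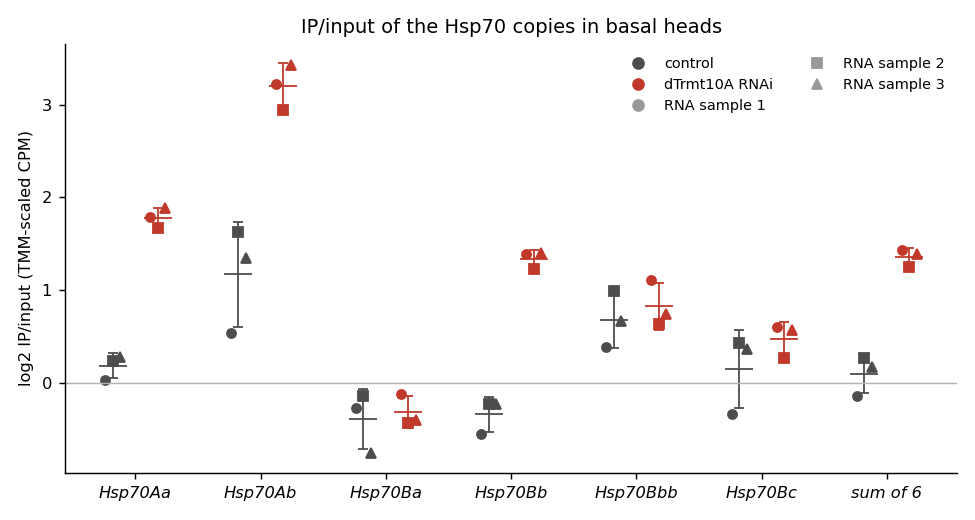
Log2 IP/input (TMM-scaled CPM) of each *Hsp70* copy and of the sum of the 6 copies in 3 control (grey) and 3 *dTrmt10A* RNAi (red) RNA samples of basal heads; symbols mark the RNA sample, and the bar and whiskers are the mean ± SD. The RNAi samples of *Hsp70Aa*, *Hsp70Ab*, *Hsp70Bb* and the sum lie above all control samples, while those of *Hsp70Ba*, *Hsp70Bbb* and *Hsp70Bc* overlap them.

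The sum of the 6 copies does not depend on how the counted reads were split between them. It would miss any reads left out by the counting, and the part of such reads was not tested. Summed *Hsp70* levels were 199, 81.5 and 70.7 CPM in control inputs and 292, 331 and 320 CPM in RNAi inputs. In IP they were 181, 98.0 and 79.9 CPM in control and 787, 788 and 841 CPM in RNAi heads. The *Hsp70* sum had a log2 IP/input of 0.10 ± 0.212 in control and 1.36 ± 0.0940 in RNAi heads (SD, n = 3 each), and its change was 1.25 (SE 0.095, adjusted p = 1.41e-06, edgeR quasi-likelihood F-test, BH). The higher summed input runs opposite to the study's RT-qPCR, which gave lower *Hsp70* RNA in basal *dTrmt10A* RNAi brains. Tissue and assay differ, and the reason was not tested.

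These calls rest on the pairing of IP and input within an RNA sample. With no term for the RNA sample, the changes were 1.63 for *Hsp70Aa*, 2.14 for *Hsp70Ab*, 1.73 for *Hsp70Bb* and 1.31 for the sum, but none passed (unadjusted p = 7.16e-04, 1.86e-04, 7.09e-04 and 0.0106, adjusted p from 0.959 to 1.00, edgeR).

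The make-up of the *Hsp70* counts differed between the genotypes. *Hsp70Aa* held 52.3% ± 5.23 of all *Hsp70* counts in control inputs and 14.6% ± 0.552 in RNAi inputs (SD, n = 3 each). *Hsp70Bb* held 12.4% ± 0.563 in control inputs and 64.7% ± 1.64 in RNAi inputs, and 8.77% ± 0.206 and 61.6% ± 0.771 in the IP libraries (SD, n = 3 each). The copies with a higher share of IP in RNAi heads than in control heads were *Hsp70Ab* (13.1% against 3.95%) and *Hsp70Bb*.

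A marker of the transgene moved with these values. *white* (*w*, FBgn0003996), an eye pigment transporter gene that is used as the visible marker of fly transgenes, had 92, 80 and 89 counts in control inputs and 14895, 15793 and 19424 in RNAi inputs, a log2 fold change of 7.46 (SE 0.107, adjusted p = 1.82e-10, edgeR quasi-likelihood F-test, BH). In IP *w* had 35, 28 and 37 counts in control and 4480, 6071 and 4292 in RNAi heads. *w* was thus higher in both kinds of library, and its log2 IP/input was -0.86, -0.85 and -0.66 in control and -1.12, -1.08 and -1.23 in RNAi samples, a change of -0.33 (adjusted p = 0.743 in the same test). *tio*, which lies beside a known landing site of the KK collection, had 161, 195 and 199 input counts in control and 186, 206 and 235 in RNAi heads, which overlap.

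As background, vectors with UAS sites commonly carry a basal promoter and leader taken from *Hsp70*. Reads from such transgene sequence and reads from the native copies cannot be told apart in counts per gene, and the part of the transgene in the *Hsp70* values was not tested. In UAS-*dTrmt10A* heads, a second transgenic genotype set against the same control libraries, *w* had 192, 238 and 561 input counts. The change of log2 IP/input in those heads was 0.67 for *Hsp70Bb* (SE 0.132, adjusted p = 0.00250, edgeR quasi-likelihood F-test, BH), 0.16 for *Hsp70Aa* (SE 0.101, adjusted p = 0.366) and -0.52 for *Hsp70Ab* (SE 0.336, adjusted p = 0.383). In control heads after heat shock, where the native copies are induced, *Hsp70Bb* took 12573, 12937 and 13342 CPM of the library total in input and 6431, 6517 and 6447 CPM in IP. On that scale *Hsp70Bb* was lower in IP than in input in all 3 heat-shocked and all 3 basal control samples. It was higher in IP than in input in all 3 RNAi samples. In basal UAS-*dTrmt10A* samples it was also higher in IP, at 30.8, 30.8 and 29.7 CPM against 24.3, 23.9 and 26.8 CPM in input. *Hsp70Ab*, another called copy, was higher in IP than in input in all 3 heat-shocked and all 3 basal control samples. In basal controls *Hsp70Ab* took 6.02, 4.23 and 3.08 CPM in IP against 4.49, 1.51 and 1.27 CPM in input. *Hsp70Aa* was lower in IP in all 3 heat-shocked controls, and among basal controls in replicate 1 but not in replicates 2 and 3. Both were higher in IP in all 3 RNAi and all 3 basal UAS-*dTrmt10A* samples.

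**Figure D2:**
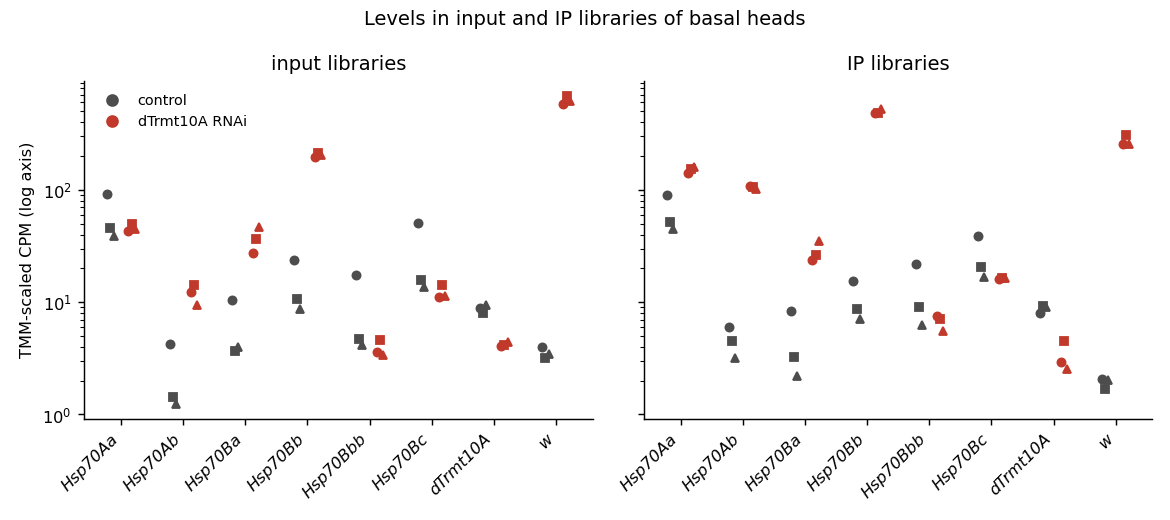
TMM-scaled CPM on a log axis of the 6 *Hsp70* copies, *dTrmt10A* and *w* in the 3 input (left) and 3 IP (right) libraries of control (grey) and *dTrmt10A* RNAi (red) heads, with 1 symbol per RNA sample. The RNAi points of *w*, *Hsp70Bb*, *Hsp70Ab* and *Hsp70Ba* lie above all control points in both assays, those of *Hsp70Aa* in IP but not in input, and those of *dTrmt10A* lie below.

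**Other transcripts.** Outside *Hsp70*, IP/input differed little between the genotypes. Among 7260 genes whose mean level was at least 3 log2 CPM, 14 had a change over 0.5 in size on the log2 scale, 3 of them the called *Hsp70* copies. The median standard error of the change was 0.0778 for genes at a mean level of 7 log2 CPM or more, 0.137 from 3 to 5 and 0.563 below 1, so that larger values at low levels carry little information, and 176 of the 181 genes with a change over 1 in size had a mean log2 CPM below 1. The median change over all genes was -0.01 and 48.1% of genes had a change above 0. TMM scaling sets the bulk of genes near 0, so these values cannot show a shift common to all transcripts.

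**Figure D3:**
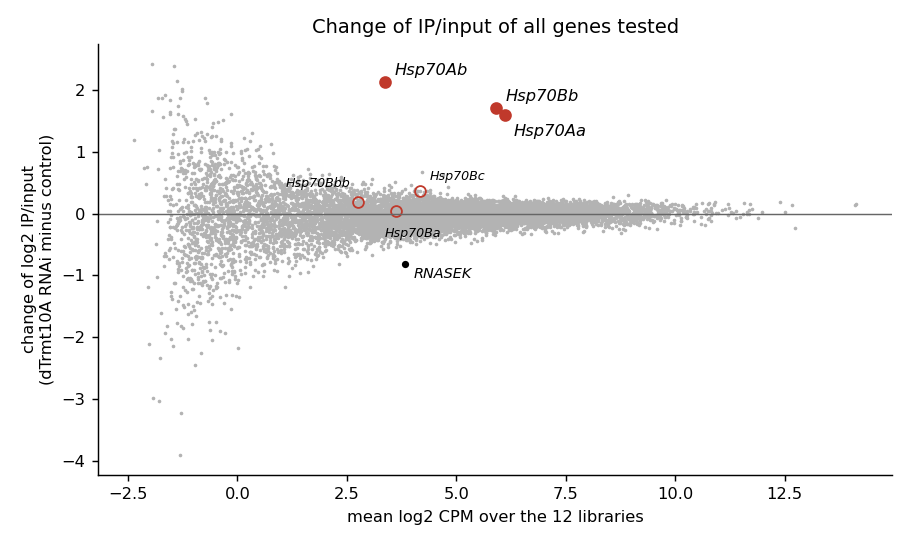
Change of log2 IP/input (*dTrmt10A* RNAi minus control) against mean log2 CPM over the 12 libraries for the 10343 genes tested; filled red points passed the threshold, open red points are the other *Hsp70* copies, and *RNASEK* had the next smallest p. *Hsp70Aa*, *Hsp70Ab* and *Hsp70Bb* lie at 1.60, 2.13 and 1.71, far from genes of similar level.

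The gene with the smallest p after *Hsp70* was *RNASEK*, which encodes a small membrane protein associated with the vacuolar proton pump. Its counts were 957, 867 and 985 in control inputs and 1084, 893 and 1293 in RNAi inputs, and 122, 114 and 98 in control IP and 62, 75 and 75 in RNAi IP. Log2 IP/input of *RNASEK* was -2.46, -2.28 and -2.72 in control and -3.48, -3.24 and -3.14 in RNAi samples, with no overlap (623 genes were lower without overlap, 6.02%). The change was -0.81 (SE 0.158, adjusted p = 0.182, edgeR quasi-likelihood F-test, BH), which did not pass. *RNASEK* was thus a depleted transcript in both genotypes.

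*CG7607* followed, with log2 IP/input of -0.49, -0.68 and -0.54 in control and -1.12, -0.87 and -1.13 in RNAi samples and a change of -0.47 (adjusted p = 0.338, edgeR quasi-likelihood F-test, BH). *CG10413*, *CG10361* and *CG6421*, the other genes of lowest p with lower values and no overlap, had changes of -0.46, -0.42 and -0.36. All 5 were below 0 in every sample, that is, less abundant in IP than in input. In the other direction, *Slob*, which encodes a binding partner of the calcium-activated potassium channel Slowpoke, had log2 IP/input of 0.56, 0.60 and 0.59 in control and 0.83, 0.83 and 0.88 in RNAi samples. The samples of each *Slob* group were close to each other (SD 0.0244 and 0.0261), and its change was 0.27 (SE 0.069, adjusted p = 0.743 in the same test). Its input RNA was 0.34 higher on the log2 scale in RNAi heads (adjusted p = 0.0464, edgeR). *dpr21*, a member of an immunoglobulin family of neuronal surface proteins, had a change of 0.43, with values of -1.01, -0.90 and -0.80 in control and -0.21, -0.65 and -0.55 in RNAi samples. For comparison, 493 genes were higher without overlap (4.77%), so that *Slob* and *dpr21* are 2 of many such genes.

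The yolk protein genes *Yp1* and *Yp2*, expressed in fat body, varied between samples of the same genotype over several log2 units. Log2 IP/input of *Yp1* was -0.41, 4.14 and 3.25 in control and 0.92, 0.37 and 4.00 in RNAi samples. *Yp2* ranged from -0.68 to 3.28 in control and from -0.25 to 3.62 in RNAi samples. Their fitted changes were 0.63 (SE 0.840) and 0.67 (SE 0.790), while the means of the sample values were lower in RNAi than in control heads (1.76 against 2.32 for *Yp1*, 1.17 against 1.70 for *Yp2*), so no direction was assigned to them.

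**Heat-inducible and constitutive chaperones.** No chaperone gene outside *Hsp70* passed the threshold. Of 10 other heat-inducible chaperone and heat response genes tested, 7 had a change above 0, beside 48.1% of all genes. Their median was 0.08, against -0.01 over all genes. *Hsp27*, a small heat shock protein, had the highest log2 IP/input of them, with 2.15, 2.74 and 2.34 in control and 2.69, 2.57 and 2.88 in RNAi samples and a change of 0.32 (unadjusted p = 0.0216, adjusted p = 0.743, edgeR quasi-likelihood F-test, BH). The *Hsp27* groups overlapped. *Hsp26*, in the same class, had a change of 0.21, and its input RNA fell by 1.15 on the log2 scale (adjusted p = 0.0464, edgeR quasi-likelihood F-test, BH). *Hsp23* had a change of -0.22, *Hsp67Ba* 0.01 and *Hsp67Bc* -0.12. *Hsp68*, a heat-inducible relative of *Hsp70*, had a change of 0.17 (95% CI -0.05 to 0.40), *Hsp83*, the fly Hsp90, 0.14 (95% CI -0.05 to 0.33), *stv*, a BAG-domain co-chaperone, 0.10, and *Hsf*, the transcription factor of the heat shock response, -0.08. *Hsp22* had 0 counts in all 12 libraries and could not be tested.

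Constitutive relatives and co-chaperones numbered 10, with a median change of 0.02 and 8 above 0, beside 48.1% of all genes. *Hsc70-1* had the smallest p of them, with log2 IP/input of 0.17, 0.01 and 0.16 in control and -0.24, -0.24 and -0.04 in RNAi samples and a change of -0.29 (unadjusted p = 0.0112, adjusted p = 0.743, edgeR quasi-likelihood F-test, BH). *DnaJ-1*, an Hsp40 co-chaperone, had 0.50, 0.75 and 0.79 in control and 0.78, 0.70 and 0.73 in RNAi samples, a change of 0.05 (95% CI -0.12 to 0.23). The intervals of *Hsp68*, *Hsp83* and *DnaJ-1* lie below the changes of the 3 called *Hsp70* copies.

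**m6A writers, readers and tRNA methyltransferases.** No gene of the m6A machinery passed the threshold in IP/input, and none in input RNA. Of the 7 writer subunits, *Mettl3* and *Mettl14*, the catalytic core, had changes of 0.19 (95% CI -0.26 to 0.65) and 0.08 (95% CI -0.43 to 0.59), with wide intervals at their low counts. *fl(2)d*, the WTAP homolog, had log2 IP/input of 1.18, 1.41 and 1.32 in control and 1.51, 1.38 and 1.54 in RNAi samples and a change of 0.17 (95% CI 0.00 to 0.34, adjusted p = 0.743, edgeR quasi-likelihood F-test, BH). *Flacc* had 1.55, 1.60 and 1.56 in control and 1.63, 1.64 and 1.71 in RNAi samples, and its change of 0.09 was not past the threshold although the groups did not overlap. *Hakai*, *vir* and *nito*, further subunits, had changes of 0.11, -0.15 and -0.02.

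Readers had enriched transcripts in both genotypes. *Ythdc1*, the nuclear YTH reader, had log2 IP/input of 1.58, 1.86 and 1.76 in control and 1.88, 1.78 and 2.00 in RNAi samples, a change of 0.15 (95% CI -0.03 to 0.33). *Ythdf*, the cytoplasmic YTH reader, had 0.55, 0.57 and 0.52 in control and 0.53, 0.53 and 0.59 in RNAi samples, and the interval of its change was -0.16 to 0.16. *Fmr1*, an RNA-binding protein that also reads m6A, had a change of -0.02 (95% CI -0.19 to 0.15). The 9 tRNA methyltransferase genes, *dTrmt10A* among them, had changes from -0.36 to 0.20, and none passed.

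**Signalling and neuronal gene groups.** The study compared m6A sites on signalling and neuronal transcripts, so groups of such genes were described by their median. No member of any of these groups passed the threshold. Of 30 axon guidance and adhesion genes 26 had a change above 0 (median 0.09), as had 16 of 20 voltage-gated channel genes (median 0.10), 9 of 10 nicotinic receptor subunits (median 0.07), 11 of 13 neuronal RNA-binding protein genes (median 0.10), 14 of 19 synaptic vesicle release genes (median 0.06), 20 of 28 MAPK genes (median 0.07) and 16 of 25 Wnt genes (median 0.06), beside 48.1% of all genes. The size of these medians depended on single control samples. With each RNA sample left out in turn they were 0.07 to 0.15 for axon guidance and adhesion, 0.05 to 0.18 for voltage-gated channels, 0.04 to 0.19 for nicotinic receptor subunits, 0.04 to 0.17 for neuronal RNA-binding proteins, 0.04 to 0.16 for synaptic vesicle release, 0.05 to 0.15 for MAPK and 0.04 to 0.15 for Wnt genes. Each was highest without control replicate 2 and, apart from the nicotinic subunits (RNAi replicate 3), lowest without control replicate 1. With the trend of exon length removed the median was 0.04 for axon guidance and adhesion, 0.04 for voltage-gated channels, 0.05 for neuronal RNA-binding proteins and 0.01 for synaptic vesicle release. *Sema2a*, a secreted axon guidance cue, had log2 IP/input of 0.10, 0.22 and 0.15 in control and 0.46, 0.33 and 0.35 in RNAi samples and a change of 0.23 (unadjusted p = 0.0138, adjusted p = 0.743, edgeR quasi-likelihood F-test, BH). *bru2*, a Bruno-family RNA-binding protein gene, had a change of 0.24, *rl*, the fly ERK kinase, 0.23, and *nAChRalpha5* and *nAChRalpha1*, acetylcholine receptor subunits, 0.25 and 0.22. *fz*, a Wnt receptor, had a change of 0.30, *Mkp3*, a phosphatase of ERK, 0.21, and *Syt4*, a synaptotagmin, 0.17.

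Single genes with strong enrichment moved within the spread of their samples. *para*, the voltage-gated sodium channel, had log2 IP/input of 1.68, 2.16 and 2.04 in control and 2.22, 1.86 and 2.21 in RNAi samples, a change of 0.14 (95% CI -0.09 to 0.38). *Sh*, the Shaker potassium channel, and *SK*, a calcium-activated potassium channel, had changes of 0.12 (95% CI -0.10 to 0.35) and 0.15 (95% CI -0.05 to 0.34). *Nrg*, the neural adhesion molecule Neuroglian, *pAbp*, the poly(A)-binding protein, *Myc*, the growth regulator, and *bru3* had changes of 0.11, 0.12, 0.12 and 0.09, and the groups of each overlapped. *RpL32*, a ribosomal protein gene often used as a reference, had -0.13.

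Transcripts of the translation machinery lay on the other side. Of 83 cytosolic ribosomal protein genes tested 11 had a change above 0, beside 48.1% of all genes, and the median was -0.08. At an unadjusted p under 0.05, 14 were lower, beside 4.07% of all genes, with none past the adjusted threshold. Without control replicate 1 the ribosomal median was -0.02, and without RNAi replicate 2 it was -0.13. *RpL29* had log2 IP/input of -1.51, -1.63 and -1.57 in control and -1.84, -1.78 and -1.96 in RNAi samples and a change of -0.29. *RpS23* and *RpS4* had changes of -0.25 and -0.24. Photoreceptor markers had a median of -0.06, with 5 of 14 above 0, and among them the opsin gene *Rh5* and the arrestin gene *Arr2* had changes of -0.30 and -0.23. The photoreceptor median was 0.01 without control replicate 1, so no direction was assigned to that list. Antimicrobial peptide genes had a median of -0.06 over 14 genes and a range from -1.18 (*CecA1*) to 0.48, and their median was -0.29 without control replicate 2 and 0.09 without control replicate 3. Their summed input level was 48.1 to 159 CPM in control and 155 to 222 CPM in RNAi heads, and the part of that difference in their IP/input was not tested.

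**Figure D4:**
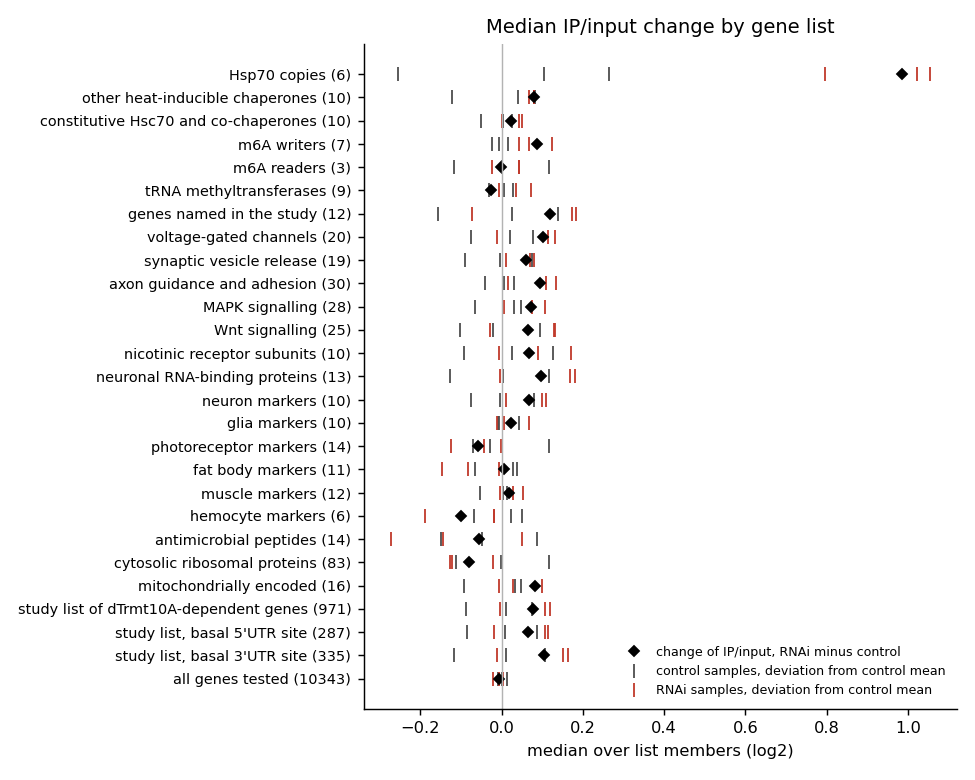
Median over the tested members of each gene list (number in parentheses): diamonds give the change of log2 IP/input (*dTrmt10A* RNAi minus control), and grey and red ticks give each control and RNAi RNA sample as its deviation from the control mean. The *Hsp70* copies have a median of 0.99, the other lists lie between -0.10 and 0.12, and outside the *Hsp70* copies and the m6A writers the ranges of the grey and red ticks overlap. With RNA samples left out in turn, the m6A writer median of 0.09 ran from -0.01 to 0.13, so no direction was assigned to it.

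The study chose its own list of *dTrmt10A*-dependent m6A genes by lower m6A in UAS-*dTrmt10A* than in control heads, without the RNAi libraries. By its methods, sites lower in basal or in heat-shocked heads were kept, whereas the change given here is of basal heads alone. Its control libraries include the basal control samples used here, so the list is no independent evidence of a direction. Of its 971 genes tested, 779 had a change above 0 (80.2%, beside 48.1% of all genes) and the median was 0.08. The median was 0.07 for 287 of its genes with a basal 5'UTR site and 0.10 for 335 with a basal 3'UTR site. None of the 971 genes passed the adjusted threshold. At an unadjusted p under 0.05, 42 lay above and 5 below 0, beside 2.09% of all genes above and 4.07% below. Over the genes of the full list, control samples deviated from the control mean by medians of -0.09, 0.07 and 0.01, and RNAi samples by 0.12, -0.00 and 0.11, so that control replicate 2 lay within the range of the RNAi samples. Without control replicate 1 the list median was 0.04, and without control replicate 2 it was 0.14. The same omissions gave 0.04 and 0.13 for genes with a basal 5'UTR site and 0.05 and 0.18 for those with a basal 3'UTR site. With the trend of exon length removed, the medians were 0.03, 0.02 and 0.05 for the full list, the 5'UTR and the 3'UTR genes.

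**The change ordered by enrichment.** These small shifts were ordered by how strongly a transcript is enriched by the antibody. To order genes without the 12 libraries of the comparison, log2 IP/input of the 3 heat-shocked control samples was used and split into deciles of about 1034 genes. The median change was -0.17 in the lowest decile, where log2 IP/input in the ordering samples was at most -1.05, and 0.10 in the highest, where it was at least 1.20. In the lowest decile 19.4% of genes had a change above 0, in the highest 82.8%. The median was higher at every step from the lowest to the highest decile. Deciles of exon length gave a smaller span, from -0.05 for the shortest genes to 0.05 for the longest.

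The same order was seen between samples of one genotype. In the lowest decile, the median deviations from the control mean were 0.18, -0.15 and -0.03 in the control samples and -0.19, -0.05 and -0.27 in the RNAi samples. In the highest decile they were -0.14, 0.14 and 0.00 in the control samples and 0.13, 0.01 and 0.15 in the RNAi samples. Control replicate 1 stood apart from the other controls in the direction away from RNAi, and control replicate 2 lay close to RNAi replicate 1. Without control replicate 1 the medians were -0.07 in the lowest and 0.04 in the highest decile. The span of the control samples (0.33 from lowest to highest in the lowest decile) was larger than the median change. What makes samples of one genotype differ in this way was not tested.

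**Figure D5:**
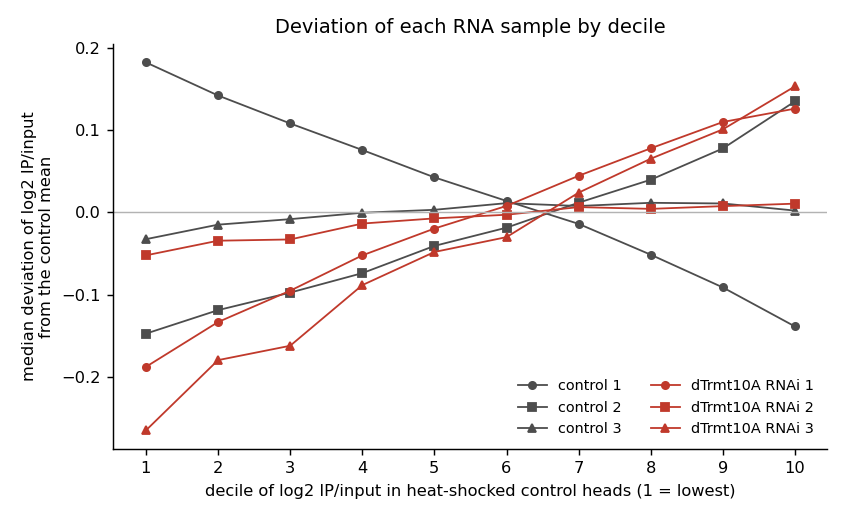
Median deviation of log2 IP/input from the control mean for each of the 3 control (grey) and 3 *dTrmt10A* RNAi (red) RNA samples, by decile of log2 IP/input in heat-shocked control heads. The lines cross near deciles 6 and 7; control 1 runs from 0.18 down to -0.14, and control 2 runs the other way, within the range of the RNAi samples.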

How the data were processed

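According to the methods of the study, reads were trimmed with Trim Galore, aligned to dm6 with STAR 2.7.3a, and counted per FlyBase gene with summarizeOverlaps; the treatment of strand, multi-mapped reads and duplicates is not given in the sources used here, and the libraries were made with a stranded kit. The authors deposited raw counts, without normalization, for 17562 genes. Counts of the 12 basal control and *dTrmt10A* RNAi libraries were kept where filterByExpr passed a gene (count of 10 or more, total of 15 or more) and analysed in R 4.3.3 with edgeR 4.0.16 after TMM scaling (quasi-likelihood F-test, Benjamini-Hochberg adjusted p under 0.05 over 10343 genes). The model held 1 term per RNA sample and an IP effect within each genotype, and the change is the difference of these effects. IP and input are parts of the same RNA, and their deviations from the group means correlated within every RNA sample (r 0.202 to 0.358). Log2 IP/input of single samples used a prior count of 2. Input RNA was tested over the 6 inputs without a block. The procedure was tested on simulated data.

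The members and lists were chosen with earlier results of these data known. Named genes are those past the threshold, the *Hsp70* copies, genes the study names, up to 5 genes per direction with the smallest p among those without overlap and at 1 log2 CPM or more on average, and up to 3 members per list with the smallest p. Symbols matched the dm6 annotation for 16847 genes directly, for 671 by an older symbol and for 44 not at all. The study compared bins along transcripts, whereas these counts hold 1 value per gene, so sites were not analysed here. Alternatives were no replicate block, other scalings (DESeq2 1.42.0 size factors, total counts, TMM without mitochondrial genes), other filters, DESeq2's Wald test, limma 3.58.1 voom, removal of the trend with exon length, and leaving out each RNA sample. Depth limits precision as given by the standard errors.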

Additional observations from a re-analysis of the deposited data

Results flagged for a closer look

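Log2 IP/input differed between the genotypes by the interaction test in 4 results. The change was 1.60 for *Hsp70Aa*, 2.13 for *Hsp70Ab*, 1.71 for *Hsp70Bb* and 1.25 for the *Hsp70* sum. The sum includes the counts of these copies, so it is not a separate result. The test is the edgeR quasi-likelihood F-test with 1 term per RNA sample. *w* counts moved in the same samples, from 80 to 92 in control inputs to 14895 to 19424 in RNAi inputs, and transgene and native reads cannot be told apart in these counts.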

How the results depend on the processing

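*Hsp70Aa*, *Hsp70Ab* and *Hsp70Bb* remained past the threshold under 14 of 15 alternatives, and *CG5172* was added without control replicate 2. With no filter, 5 genes were higher and 2 lower, *Yp1* and *Yp2* among the first, *RNASEK* (-0.80, adjusted p = 0.00174, edgeR) and *CG7607* (-0.46, adjusted p = 0.0249, edgeR) the second. With no replicate block, 0 genes passed in either direction, and an unadjusted p under 0.05 was reached by 87 genes above and 217 below 0. The changes were then 1.63 for *Hsp70Aa*, 2.14 for *Hsp70Ab*, 1.73 for *Hsp70Bb* and 1.31 for the *Hsp70* sum, with standard errors of 0.383, 0.434, 0.407 and 0.450. By construction, that fit leaves differences in *Hsp70* level between RNA samples in the error.

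With each RNA sample left out in turn, 3 to 4 genes were higher and 0 lower. *Hsp70Aa* was 1.52 to 1.67, *Hsp70Ab* 1.65 to 2.40, *Hsp70Bb* 1.58 to 1.80 and the *Hsp70* sum 1.12 to 1.35, each lowest without control replicate 1. *Hsp70Ba* was -0.070 to 0.14 with samples left out, -0.0069 with no replicate block and -0.012 with total library size, and *Hsp70Bbb* was -0.00079 to 0.37 with samples left out.

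Of 870 values of the other named genes under alternatives, 31 had the other sign, and the cause was not tested. *Ythdf* was 0.025 with RLE size factors, 0.0052 with TMM without mitochondrially encoded genes, 0.011 with no filter, 0.019 with at least 10 counts in every library and 0.025 with DESeq2, and -0.018 to 0.036 with samples left out. *Fmr1* was 0.0071 with RLE, 0.00035 with at least 10 counts and 0.0071 with DESeq2, and -0.069 to 0.064 with samples left out. *nito* was 0.0061 with RLE, 0.0063 with DESeq2 and -0.065 to 0.033 with samples left out. *Hsp67Ba* was -0.038 with total library size and -0.043 to 0.10 with samples left out. With samples left out, *DnaJ-1* was -0.027 to 0.12, *Hakai* -0.011 to 0.26, *Hsp67Bc* -0.26 to 0.082, *Mettl14* -0.072 to 0.36 and *Myc* -0.052 to 0.25.

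In input RNA, 110 genes were higher and 85 lower with no filter, 102 and 84 with DESeq2, and 21 to 46 higher and 19 to 34 lower with samples left out. With the replicate block in the input fit, 57 were higher and 56 lower, and the numbers do not pair the inputs (r -0.03, -0.09 and 0.22). The input change of *Hsp70Aa* was -0.59 to 0.12 with samples left out, and that of *Hsp70Ab* missed the threshold without control replicate 2 (adjusted p = 0.0779, edgeR) and without RNAi replicate 2 (adjusted p = 0.0711, edgeR).

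Medians of lists moved by more than the spread between samples in 35 of 420 cases. With the trend of exon length removed, the median was 0.04 for axon guidance and adhesion and 0.03 for the study list. The median of all genes ranged from -0.05 with total library size to 0.02 with DESeq2. The lowest decile's median was -0.24 to -0.07 and the highest decile's 0.04 to 0.19 with samples left out, in alternatives chosen after seeing the data. Depth limits the genes below 1 log2 CPM, where the median standard error of the change was 0.563.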

Other observations

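By chromosome arm, the median change of log2 IP/input was -0.02 on 2L (1841 genes), -0.01 on 2R (2094 genes), 3L (2012 genes) and 3R (2529 genes), 0.01 on X (1734 genes) and 0.03 on chromosome 4 (95 genes). The change was above 0 for 62.1% of genes on chromosome 4 and 52.4% on X, against 45.4% on 2L. No arm was tested against another.

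Among genes at 3 log2 CPM or more and with a change over 0.5 in size, *CG33494*, *CG15237*, *BomT2*, *CG5002*, *CG10352* and *CG8311* had changes of -0.66, -0.57, -0.54, -0.53, -0.53 and -0.52, and *CG43402* and *CG15877* 0.52 and 0.56. *BomT2* encodes a secreted peptide of the Bomanin family, induced by the Toll pathway. None passed the threshold (adjusted p = 0.743 for each, edgeR quasi-likelihood F-test, BH). Input RNA of *CG43402* was lower in RNAi heads, with a log2 fold change of -0.82 (adjusted p = 0.0115, the same test).

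Mitochondrially encoded transcripts were depleted by the IP in both genotypes, with a median log2 IP/input of -4.12 in control heads over 16 genes tested and a median change of 0.08. *mt:ATPase6* had a change of 0.31 and *mt:ND4* -0.25, and neither passed the adjusted threshold.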
